A study of Mus musculus with 16 samples.

Results

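The glutathione transferases (Gst), UDP-glucuronosyltransferases (Ugt) and cytosolic sulfotransferases (Sult) of the liver were followed across 16 mice. The genes were chosen by symbol and not by value, though with earlier results of these data known. Members were those whose symbol on the array starts with Gst, a class letter and a number, or with Ugt or Sult and a number. This gave 52 genes on 55 probes (20 Gst, 20 Ugt and 12 Sult genes) out of 36824 features on 39556 probes. Sult2b1, Ugt1a7c and Ugt2b5 had several probes, whose values were averaged. Another 4 genes (Sult6b1, Sult2a8, Gstt4 and Sult6b2) carry older names on the array and so fall outside the rule, and none of them was called between the genotypes (limma adjusted p between 0.836 and 0.965).

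Livers came from 8 male mice heterozygous for a knockout of Lpl, the lipoprotein lipase gene (Lpl+/-), and from 8 male wild type littermates, all on a chow diet. Each liver was hybridised on 2-colour arrays against a pool of liver RNA from 9 wild type males, with dyes swapped, and 1 column of values per mouse was used. Strain, age, time of day of collection and the making of the knockout allele are not given in the sources used here. A value is a log ratio, taken as log10 of mouse over pool. Base and direction are likely rather than stated, and every fold printed here rests on base 10 unless log2 is named. A ratio carries no absolute level, so levels of different genes were not compared, and whether these enzymes were abundant in the samples could not be checked. In whole liver, fewer cells of a type and less RNA per cell cannot be told apart.

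Conjugation is the step in which the liver couples drugs, hormones, bilirubin and reactive metabolites to a soluble group so that they can leave in bile or urine. Glutathione transferases add glutathione to electrophiles, Ugt enzymes add glucuronic acid from UDP-glucuronic acid, and sulfotransferases add sulfate from the donor PAPS. Many of these genes are known to respond to xenobiotic receptors and to NRF2, to be lowered in inflammation and, in rodents, to differ between male and female liver.

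Array medians lay between -0.00450 and 0.00720, and an array held 0 to 88 values at the end of the scale, none of them in a probe of the 52 genes. Of 120 pairs of arrays, only wild type 5 with wild type 8 had a correlation over all probes under -0.3 (r = -0.352). The signs of these arrays are therefore not settled, and results are also given with either sign turned. Lpl was lower in Lpl+/- mice (difference -0.378, limma adjusted p = 0.0158), which is one of the grounds on which the direction was taken. A limma p-value sets a difference or slope against the spread between separate animals, with each variance drawn towards that of all features.

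The first question was whether conjugation enzymes differ between Lpl+/- and wild type liver, and no difference was called. Of 52 members, 0 passed an adjusted p of 0.05 in limma, where 0.0163% of all features did. At an unadjusted p under 0.05 there were also 0 members, against 5.6% of all features. No member had groups that did not overlap, against 0.038% of all features. The Lpl+/- mean lay above the wild type mean in 27 members and below it in 25. The median difference was 9.94e-04 in log10, and 5.31e-04 over all features. By family it was -2.44e-04 for Gst, -0.00106 for Ugt and 0.0157 for Sult. The count of called members was 0 when wild type 5 or wild type 8 was given the opposite sign as well.

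**Figure D1:**
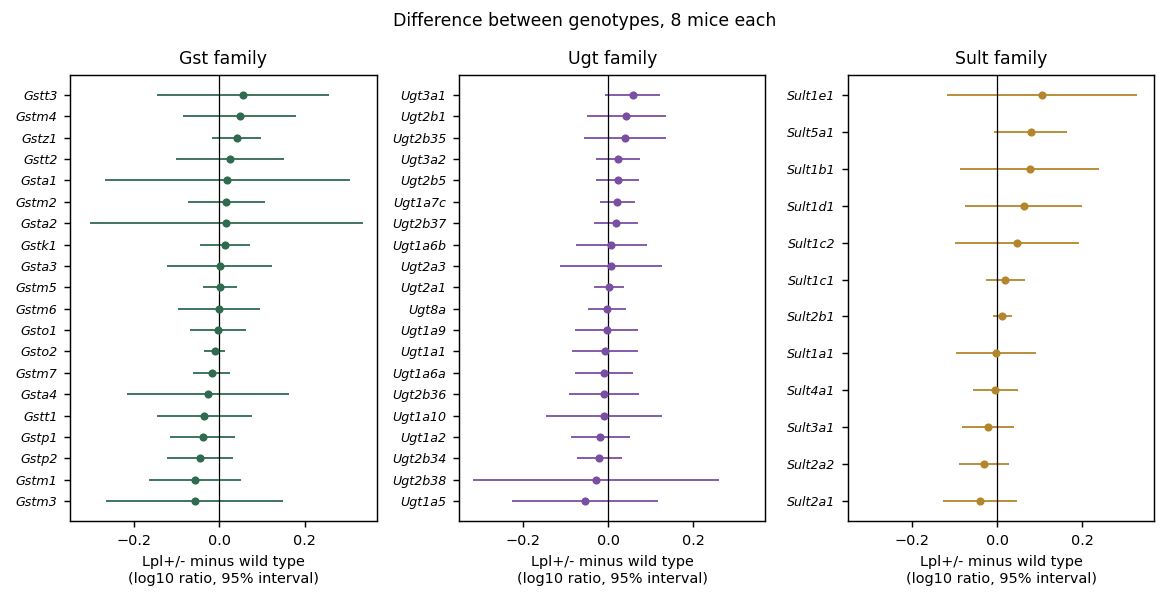
Difference between the mean log10 ratios of 8 Lpl+/- and 8 wild type mice for each of the 52 genes, by family, in log10 units, with 95% confidence intervals from the pooled SD of the gene (14 degrees of freedom, not adjusted for the number of genes). Every interval includes 0, and the widest belong to Gsta2, Ugt2b38 and Gsta1.

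The sulfotransferases held the widest difference and the lowest p. Sult5a1 lies on chromosome 8, as Lpl does, with 375 measured genes out of 697 between their positions in gene order. Its lowest, median and highest values were -0.0765, 0.00595 and 0.0370 in wild type mice and -0.0962, 0.0972 and 0.186 in Lpl+/- mice. Of the Lpl+/- livers, 6 lay above every wild type liver and 2, Lpl+/- 3 and Lpl+/- 4, lay below every wild type liver. The difference was 0.0784 ± 0.0378 (SE), a fold of 1.20, with an unadjusted p of 0.0541 and a limma adjusted p of 0.836.

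Sult1e1 sulfates and so inactivates estrogens. Its wild type values ran from -0.165 over a median of -0.0189 to 0.192, and its Lpl+/- values from -0.140 over 0.0542 to 0.733. The top value was that of Lpl+/- 1 alone, and the next highest Lpl+/- liver, at 0.135, lay inside the wild type range. The difference of 0.105 ± 0.0965 (SE, limma adjusted p = 0.853) was 0.0151 without that mouse. Sult1b1, which acts on thyroid hormones, differed by 0.0763 ± 0.0708 and Sult1d1, an enzyme for catecholamines, by 0.0625 ± 0.0597 (limma adjusted p = 0.853 and 0.855). Without 1 mouse these ran from 0.0417 to 0.119 and from 0.0298 to 0.0991, lowest without wild type 8 and highest without Lpl+/- 4.

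Sult2a1, the hydroxysteroid sulfotransferase that takes dehydroepiandrosterone and bile acids, was nearly level in 15 of 16 mice. Wild type values ran from -0.0423 over a median of 0.0153 to 0.0594. In Lpl+/- mice the median was 0.0147 and the highest value 0.0333, but Lpl+/- 3 stood at -0.297. Sult2a2 had the same shape, with Lpl+/- 3 at -0.202 and the other Lpl+/- mice between -0.0323 and 0.0160. Sult2a1 differed by -0.0406 ± 0.0381 between the genotypes (limma adjusted p = 0.854) and by -0.00249 without Lpl+/- 3. These genes are close relatives and the probe sequences were not used here, so 2 low genes and 1 low gene read by both probes cannot be told apart. Lpl+/- 3 also had the most values at the limit of the scale (88) and, with the arrays as deposited, the highest score of the female-biased genes described further on (0.191). It was second to wild type 8 in that score when wild type 8 was turned. Their part in the low Sult2a1 value was not tested.

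**Figure D2:**
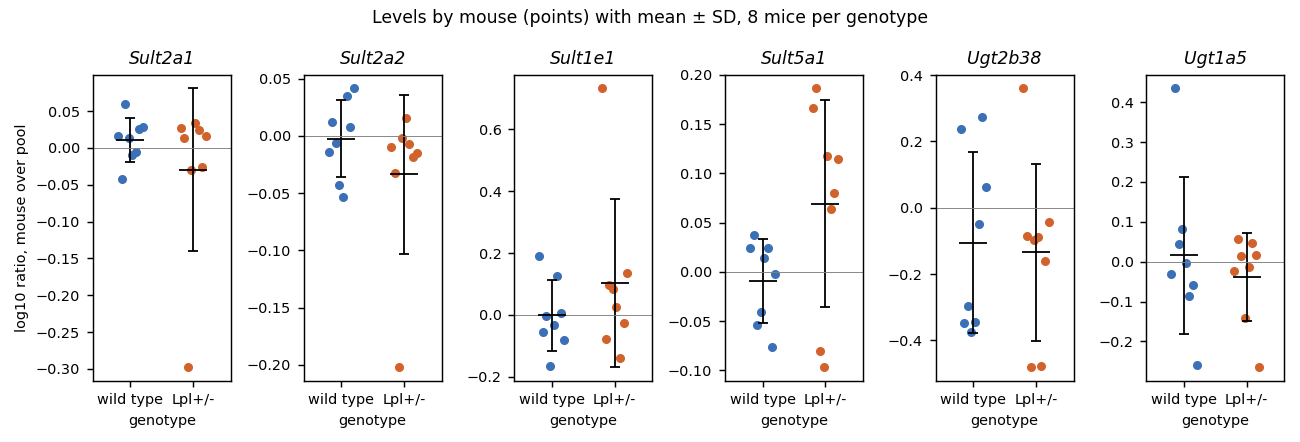
Log10 ratio of mouse over pool for 6 genes, 1 point per mouse, by genotype, with the mean and SD of 8 mice per genotype as black bars and an axis of its own for each gene. Lpl+/- 3 stands at -0.297 in Sult2a1 and Lpl+/- 1 at 0.733 in Sult1e1, away from the other mice of their genotype.

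Among glucuronosyltransferases the lowest p was that of Ugt3a1, of the subfamily that uses UDP-sugars other than UDP-glucuronic acid. Its wild type values were -0.0899, -0.00990 and 0.106 (lowest, median and highest) and its Lpl+/- values -0.0166, 0.0537 and 0.120, with wide overlap. The difference was 0.0567 ± 0.0283 (SE), a fold of 1.14, with an unadjusted p of 0.0622 and a limma adjusted p of 0.836. Ugt1a5 differed by -0.0539 ± 0.0744 (limma adjusted p = 0.897). Wild type 2 stood at 0.435 in it, far above the other mice, and without that mouse the sign turned, to 0.00602. Ugt2b1 and Ugt2b35, of the subfamily that takes steroids and bile acids, differed by 0.0416 ± 0.0407 and 0.0391 ± 0.0418 (limma adjusted p = 0.858 and 0.869). Without 1 mouse they ran from 0.0246 to 0.0722 (lowest without Lpl+/- 2, highest without Lpl+/- 4) and from 0.0171 to 0.0669 (lowest without wild type 9, highest without wild type 4).

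Among glutathione transferases the lowest unadjusted p was 0.130, for Gstz1, the maleylacetoacetate isomerase of tyrosine breakdown (difference 0.0411 ± 0.0257, limma adjusted p = 0.836). The widest differences were those of the mu class genes Gstm3 (-0.0584 ± 0.0905), Gstm1 (-0.0573 ± 0.0472) and Gstm4 (0.0474 ± 0.0581) and of the theta class gene Gstt3 (0.0557 ± 0.0877), with limma adjusted p between 0.843 and 0.909. When 1 mouse was left out they ran from -0.115 to -0.0119 for Gstm3, -0.0807 to -0.0271 for Gstm1, 0.0176 to 0.0734 for Gstm4 and 0.0117 to 0.101 for Gstt3. Leaving out Lpl+/- 4 gave the Gstm3 and Gstm1 differences nearest 0 and the widest one for Gstt3. The Gstt3 difference turned to -0.0271 when wild type 8 was given the opposite sign. The bounds on a change differed greatly between members. The 95% confidence interval of Gsta2 reached from 0.497-fold to 2.17-fold, and that of Sult2b1 from 0.977-fold to 1.08-fold.

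The spread between mice of the same genotype is given as a description, with no test. The pooled SD within genotypes had a median of 0.0772 over the 52 members and 0.0417 over all features, and 18 members lay above the 90th percentile of all features (0.0943). These were 10 of 20 Gst, 4 of 20 Ugt and 4 of 12 Sult genes. The count was 18 with either sign turned, 15 without Lpl+/- 4, and 11 without the 3 mice with the highest acute phase score, a measure described further on. The widest SDs were those of Gsta2 (0.299), Ugt2b38 (0.270), Gsta1 (0.269), Sult1e1 (0.208), Gstm3 (0.195) and Gstt3 (0.189). At the other end was Sult2b1 (0.0209), which sulfates cholesterol and pregnenolone.

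The alpha class, whose enzymes reduce lipid peroxides and, in the case of Gsta4, conjugate the lipid aldehyde 4-hydroxynonenal, had the widest range of the Gst classes. Gsta2 stood at -0.180, 0.167, 0.189, 0.281, 0.0381, -0.306, -0.352 and 0.0979 in wild type replicates 1, 2, 4, 5, 6, 7, 8 and 9. In Lpl+/- replicates 1 to 8 it stood at -0.158, 0.226, 0.215, -0.778, 0.0557, 0.231, 0.247 and 0.0251. Lpl+/- 4 was lowest, followed by wild type 8 and wild type 7, and the other mice of both genotypes overlapped. With its sign turned wild type 8 would be the highest, at 0.352. The lowest and highest livers were 11.5-fold apart, or 2.08-fold if the values are log2. Gsta1 spanned 8.40-fold and Gsta4 5.01-fold, with Lpl+/- 4 again lowest, at -0.604 and -0.496.

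Many members moved together across mice. After removal of the genotype means, the correlation over 16 mice was 0.968 between Gsta1 and Gsta2, 0.984 between Gsta2 and Gsta4, 0.985 between Ugt1a1 and Ugt1a9 and 0.841 between Sult2a1 and Sult2a2. The median over pairs was 0.909 within the alpha class, 0.622 within Ugt1a, 0.371 within Gst, 0.306 within Ugt, 0.0550 within Sult and -0.001 over all features with a symbol. These are descriptions over arrays that share a pool. Gsta1 and Gsta2 are close copies, and the Ugt1a transcripts share their 3′ exons behind separate first exons, so a probe outside the unique part would read several of them. Correlation also ran between genes of different families or chromosomes, at 0.948 between Gsta1 on chromosome 9 and Gstm1 on chromosome 3, and 0.924 between Gstt3 on chromosome 10 and Ugt1a9 on chromosome 1. Without the 3 mice with the highest acute phase score the median was 0.669 within the alpha class and 0.608 within Ugt1a, while it fell to 0.151 within Gst, 0.130 within Ugt and 0.0852 over all members, from 0.230. Without Lpl+/- 4 alone it was 0.168 within Ugt. Without the 3 mice the cross-chromosome pairs stood at 0.865 and 0.828. When wild type 8 was given the opposite sign, the alpha class median was 0.900.

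The promoters of Gsta1 and Gsta2 are shown because these genes had the widest SDs of the Gst family and tracked each other. Each is the 250 bases before the gene start in RefSeq, build GRCm38.p6. Gsta1 is at chr9:78230419-78230668 on the plus strand and Gsta2 at chr9:78347146-78347395 on the minus strand, and capitals mark the longest run that both share, of 29 bases, which begins 118 bases before the start of Gsta1 and 121 before that of Gsta2.
Gsta1: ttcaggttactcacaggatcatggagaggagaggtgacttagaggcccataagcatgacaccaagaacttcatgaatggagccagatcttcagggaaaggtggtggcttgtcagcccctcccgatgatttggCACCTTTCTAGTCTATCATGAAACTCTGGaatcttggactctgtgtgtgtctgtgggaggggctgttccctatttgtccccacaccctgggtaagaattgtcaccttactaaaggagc
Gsta2: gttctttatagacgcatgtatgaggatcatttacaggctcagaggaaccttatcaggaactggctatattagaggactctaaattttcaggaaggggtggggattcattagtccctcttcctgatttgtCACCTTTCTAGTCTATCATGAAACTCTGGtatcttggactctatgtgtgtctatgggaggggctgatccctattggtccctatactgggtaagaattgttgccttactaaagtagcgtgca

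The second question was what the low livers had in common. Lpl+/- 4 was the lowest of 16 mice in 22 of 52 members, 11 of them Gst, 10 Ugt and 1 Sult, and lay below 0 in 44 of 52. It was lowest in 26 when wild type 8 was given the opposite sign. Counts of this kind have no share over all features beside them here. Lpl+/- 4 was also lowest of 16 in listed genes outside the families, such as Inmt (-0.752) and Gnmt (-0.302). In others, such as Nnmt (0.265) and Papss1 (0.260), it was highest, so an extreme place of this mouse was not particular to the members. Wild type 7 and wild type 8 each lay below 0 in 40 of 52, and wild type 8 lay below 0 in 12 with its sign turned. As deposited, these are the 3 mice with the highest acute phase score, the mean log10 ratio of Saa1, Saa2, Saa3, Orm2, Lcn2 and Hp, which encode proteins that the liver secretes in inflammation. The score was 0.666 in Lpl+/- 4, 0.0251 in wild type 8 and -0.0386 in wild type 7, and the other mice lay between -1.13 (wild type 5) and -0.226. With its sign turned wild type 8 had a score of -0.0251, still next to Lpl+/- 4, while wild type 5 turned had 1.13, the highest of 16. The genotypes differed in it by 0.0631 (exact permutation p = 0.829, two-sided, 8 mice each).

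**Figure D3:**
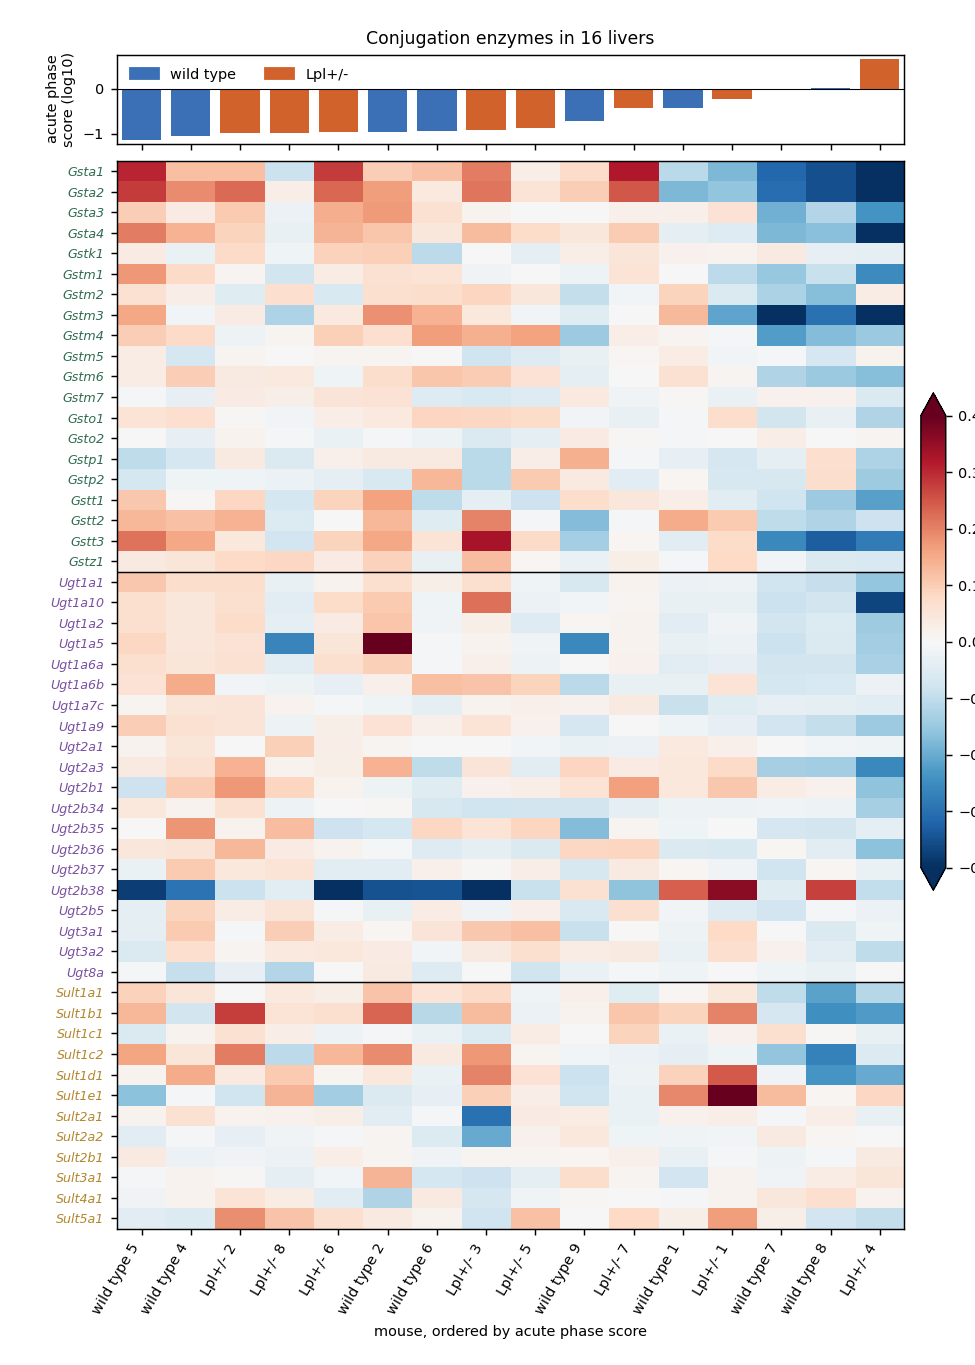
Log10 ratio of mouse over pool for the 52 genes (by family) in the 16 mice, ordered from the lowest to the highest acute phase score, with the score of each mouse in log10 units shown as bars. The columns of wild type 7, wild type 8 and Lpl+/- 4, at the high end of the score, lie below 0 in 40, 40 and 44 of the 52 genes as deposited (12 for wild type 8 with its sign turned). No share over all features is given beside these counts.

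With genotype in the model, 17 of 52 members changed with the acute phase score at a limma adjusted p of 0.05, and all 17 were lower where the score was higher. Of all features outside the score, 3.33% were called and 1.51% were called lower. The 17 were 10 of 20 Gst genes, 6 of 20 Ugt genes and 1 of 12 Sult genes. They include 4 Gsta and 5 Ugt1a genes, which are related, moved together and are not separate counts. At an unadjusted limma p under 0.05 there were 26 members, against 16.9% of all features. Slopes were below 0 in 41 of 52 members and in 51.0% of all features, and the median slope was -0.0693 against -6.86e-04. A slope is the change of a gene's log10 ratio per 10-fold higher score. The score and the members were read on the same arrays. This score and the others used below were chosen with earlier results of these data known.

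All 4 alpha class genes were called. Gsta2 had a slope of -0.526 ± 0.0569 (SE, limma adjusted p = 1.44e-04), or 0.298-fold per 10-fold higher score. Gsta4 had one of -0.313 ± 0.0347, Gsta1 of -0.440 ± 0.0676 and Gsta3, which detoxifies aflatoxin epoxide in the mouse, of -0.179 ± 0.0332 (limma adjusted p = 1.67e-04, 0.00220 and 0.00777). Gsta2 correlated with the score at a Pearson r of -0.918 and a Spearman rho of -0.741 over 16 mice. This is a description with no test of its own, since Gsta2 is named for its low p on this score. With wild type 8 or wild type 5 turned r was -0.732 or -0.817. Without wild type 8 and Lpl+/- 4, the mice farthest from the median score, Pearson's r was -0.780. Within wild type mice it was -0.972 and within Lpl+/- mice -0.897. The Lpl+/- value includes Lpl+/- 4, with a score of 0.666 and Gsta2 at -0.778, while the other Lpl+/- mice had scores of -0.226 or lower. No r of the Lpl+/- mice without Lpl+/- 4 is given here.

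**Figure D4:**
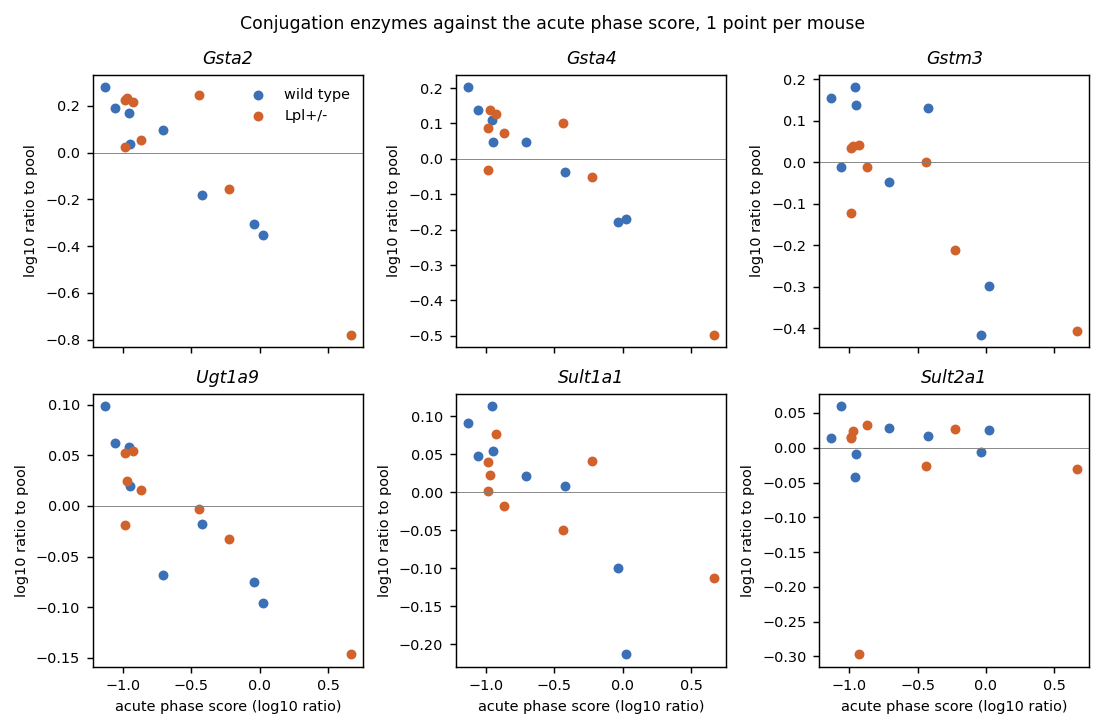
Log10 ratio of mouse over pool of single genes (vertical axis) against the acute phase score in log10 units (horizontal axis), 1 point per mouse, by genotype. Lpl+/- 4 lies at the far right with a score of 0.666 and a Gsta2 value of -0.778.

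In the mu class, which acts on epoxides and other electrophiles, Gstm1 (-0.165 ± 0.0263), Gstm3 (-0.304 ± 0.0551), Gstm4 (-0.183 ± 0.0396) and Gstm6 (-0.142 ± 0.0257) were called, with limma adjusted p between 0.00280 and 0.0188, and Gstm2, Gstm5 and Gstm7 were not. Gstt3 of the theta class (-0.285 ± 0.0566) and Gsto1, an omega class enzyme that reduces dehydroascorbate (-0.0887 ± 0.0205), were called as well (limma adjusted p = 0.0118 and 0.0268). The pi class genes Gstp1 and Gstp2, the kappa class gene Gstk1 and the zeta class gene Gstz1 did not pass (limma adjusted p between 0.0797 and 0.796).

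Of the Ugt1a genes, 5 of 8 were called. Ugt1a1, which conjugates bilirubin, ran from -0.0920 over 9.50e-04 to 0.106 in wild type and from -0.153 over -0.00215 to 0.0699 in Lpl+/- mice. Lpl+/- 4 was the lowest, and the genotypes otherwise overlapped. The slope of Ugt1a1 was -0.118 ± 0.0200, that of Ugt1a9, an enzyme for phenols, -0.117 ± 0.0167 and that of Ugt1a10 -0.197 ± 0.0370 (limma adjusted p = 0.00429, 0.00131 and 0.00821). Ugt1a6a, which takes planar phenols, and Ugt1a2 had slopes of -0.0999 ± 0.0184 and -0.0973 ± 0.0206 (limma adjusted p = 0.00746 and 0.0163). The probes of Ugt1a7c disagreed, with slopes of 0.0102 and -0.101 (limma adjusted p = 0.903 and 0.00615). Outside Ugt1a, Ugt2a3 was called (-0.154 ± 0.0391, limma adjusted p = 0.0434) and none of the 7 Ugt2b genes was. Ugt2b38 had the opposite sign, at 0.290 ± 0.109 (limma adjusted p = 0.176).

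Among the sulfotransferases only Sult1a1, which takes phenols, was called (-0.130 ± 0.0278, limma adjusted p = 0.0177). Sult1c2 lay just outside (-0.177 ± 0.0484, limma adjusted p = 0.0585). Sult2a1 had a slope of 0.00982 ± 0.0400 and Sult1e1 of 0.156 ± 0.0934 (limma adjusted p = 0.932 and 0.430).

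**Figure D5:**
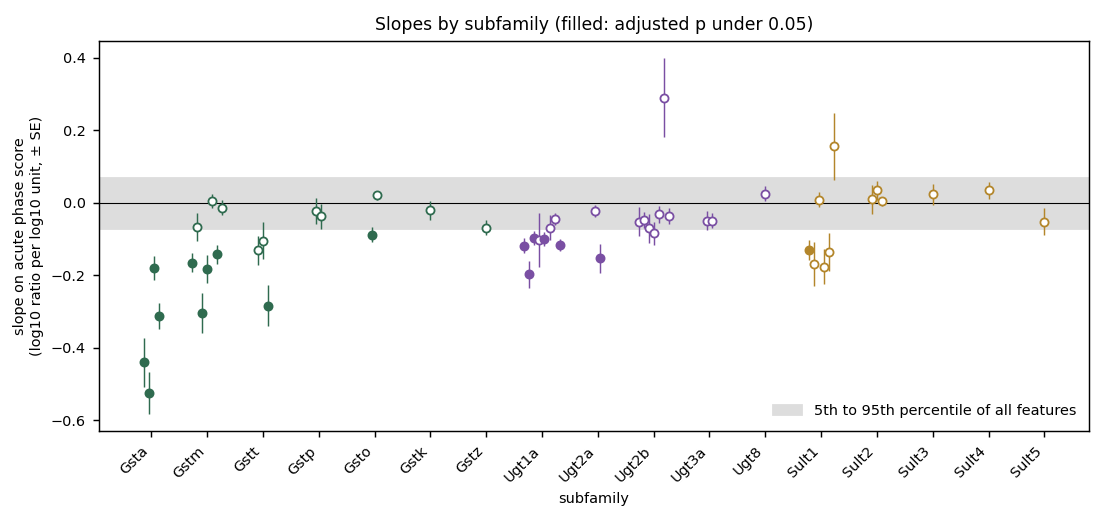
Slope of each of the 52 genes on the acute phase score, in log10 ratio per log10 unit of score, by subfamily, with bars of 1 SE, filled points for genes past a limma adjusted p of 0.05, and the range from the 5th to the 95th percentile of 36818 features (-0.0718 to 0.0688) as a band. All 4 Gsta genes were called, and Gsta2 has the lowest slope, -0.526.

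The promoters of 4 called Ugt1a genes are shown because each holds GTTAAT, the core of the HNF1 motif, or its reverse complement ATTAAC. HNF1 is a liver transcription factor known to act on UGT1A genes in human. Capitals mark the motif in the 250 bases before the start, on the plus strand of GRCm38.p6 (RefSeq), at chr1:88211709-88211958 for Ugt1a1, chr1:88070529-88070778 for Ugt1a9, chr1:88055161-88055410 for Ugt1a10 and chr1:88134559-88134808 for Ugt1a6a.
Ugt1a1: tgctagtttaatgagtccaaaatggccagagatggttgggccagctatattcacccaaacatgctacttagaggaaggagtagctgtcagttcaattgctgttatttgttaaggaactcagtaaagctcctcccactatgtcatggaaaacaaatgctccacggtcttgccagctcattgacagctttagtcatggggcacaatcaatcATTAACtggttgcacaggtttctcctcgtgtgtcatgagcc
Ugt1a9: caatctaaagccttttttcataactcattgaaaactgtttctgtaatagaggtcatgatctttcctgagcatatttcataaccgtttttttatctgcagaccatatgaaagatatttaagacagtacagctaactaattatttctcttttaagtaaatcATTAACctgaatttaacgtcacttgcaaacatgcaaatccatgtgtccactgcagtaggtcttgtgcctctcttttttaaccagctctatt
Ugt1a10: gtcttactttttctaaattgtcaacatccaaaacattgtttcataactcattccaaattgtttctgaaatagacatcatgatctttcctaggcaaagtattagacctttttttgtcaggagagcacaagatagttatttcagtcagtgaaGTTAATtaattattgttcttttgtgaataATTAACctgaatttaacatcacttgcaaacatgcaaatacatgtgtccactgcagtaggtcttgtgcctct
Ugt1a6a: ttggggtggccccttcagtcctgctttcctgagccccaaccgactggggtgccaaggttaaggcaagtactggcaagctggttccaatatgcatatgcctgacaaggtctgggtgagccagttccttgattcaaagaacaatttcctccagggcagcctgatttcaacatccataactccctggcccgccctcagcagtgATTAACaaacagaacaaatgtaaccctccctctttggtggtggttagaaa

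Of the 52 members, 45 matched a RefSeq promoter. On either strand GTTAAT was in 9 of these 45 (20%) and in 7.49% of 27025 genes, and 7 of the 16 called members with a promoter sequence held it. These 7 include the Ugt1a genes shown, which are related genes on chromosome 1 and not separate counts. The Ugt1a9 and Ugt1a10 sequences are nearly alike around ATTAAC. Ugt1a2, also called, was not among the members in which the motif was found. The other motifs, also searched on both strands, were TGACNNNGC, the core of the antioxidant response element (3 of 45 members, 11.5% of genes), GCGTG, the core of the AHR element (9 of 45, 30.9%), TTGCNNAA, a C/EBP-like motif (5 of 45, 10.8%) and an NF-kB-like motif of 10 letters (0 of 45, 1.65%). Of the 16 called members, TGACNNNGC was in 1, GCGTG in 2, TTGCNNAA in 1 and the NF-kB-like motif in 0. A match describes letters in this window and shows no binding.

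The count of 17 rested on few mice. It was 6 without Lpl+/- 4 (1.09% of all features), of which Gsta2, Gsta4, Gstm3, Sult1a1 and Ugt1a9 were among the 17. It was 0 without the 3 mice with the highest score (0.0136% of all features), where 8 members passed an unadjusted p of 0.05 in limma against 4.86% of all features. In that setting the slope of Gsta2 was -0.365 ± 0.115 and that of Ugt1a9 -0.113 ± 0.0380 (limma adjusted p = 0.951 and 0.961). When wild type 5 was given the opposite sign, 8 members were called (1.82% of all features), and when wild type 8 was, 1 was, Gsta4 (0.448%). Quantile normalization gave 7 (0.72%), and the clock score in the model gave 18 (3.34%). In wild type mice alone 7 were called (0.445%). In Lpl+/- mice alone 0 were (0.209%), with 22 at an unadjusted limma p under 0.05 against 11.9% of all features. A slope that differed between the genotypes was called by limma in 0 members (0.0% of all features), with 3 at an unadjusted p under 0.05 against 7.44%.

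Markers of liver cell types moved with the score in part. In Lpl+/- 4 the hepatocyte list (5 of 6 genes measured) averaged -0.159, the lowest of 16 mice, while wild type means lay between -0.0364 and 0.0478 and the highest Lpl+/- mean was 0.0357. Apoa1 (-0.203), Cps1 (-0.280) and Ttr (-0.0624) had their lowest value in that mouse, and Hnf4a stood at -0.00930. The neutrophil list averaged 0.170 there, with S100a8 at 0.359 and S100a9 at 0.384, while Ngp and Ltf stood at -0.00400 and -0.0198. On the score, limma called 1 of 5 hepatocyte markers (Ttr, lower), 1 of 2 bile duct markers (Spp1, higher), 2 of 5 neutrophil markers (S100a8 and S100a9, higher) and 4 of 6 stellate cell markers (Col1a1, Col1a2 and Col3a1 higher, Reln lower). It called 0 of 6 macrophage, 0 of 4 endothelial, 0 of 5 lymphocyte and 0 of 7 pancreas and gut markers. The share called over all features was 3.33%, with 1.51% called lower. The hepatocyte markers Apoa1, Tat, Hnf4a and Cps1 were not called, with a slope above 0 in Hnf4a (0.0275) and below 0 in the others. The part of cell makeup in the slopes was not tested.

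A second score was the mean of 8 measured genes known to be higher in female than in male liver, among them Cyp2b9, Cyp2a4 and Cyp3a41, in these male mice. It ran from -0.230 (wild type 8) to 0.126 (wild type 4) and from -0.257 (Lpl+/- 4) to 0.191 (Lpl+/- 3). With its sign turned, wild type 8 was the highest of 16. It was lower where the acute phase score was higher, with a Pearson r of -0.735 (permutation p = 0.00113, adjusted over 3 relations 0.00339), a Spearman rho of -0.579 (permutation p = 0.0204) and an r of -0.470 without the 2 mice farthest from the median. The Pearson r was -0.446 with wild type 8 turned and -0.641 with wild type 5 turned. With genotype in the model limma called 19 members on the female-biased score, all higher with it. Over all features 8.34% were called and 4.47% called higher. The 19 also include related Gsta and Ugt1a genes, which are not separate counts. The lowest p was that of Gstt3, with a slope of 1.33 ± 0.122 (limma adjusted p = 5.66e-05). Gstm6 (0.606 ± 0.0796), Sult1d1 (0.840 ± 0.120), Ugt1a9 (0.445 ± 0.0705), Gstt2 (0.756 ± 0.122), Gsto1 (0.396 ± 0.0639), Ugt1a1 (0.467 ± 0.0765) and Sult1a1 (0.549 ± 0.0949) followed. Sult2a1, Sult2a2 and Sult3a1, which are known as female-biased in mouse liver, were not called and had slopes below 0 (-0.181 ± 0.150, -0.233 ± 0.0892 and -0.137 ± 0.107, limma adjusted p = 0.478, 0.119 and 0.451). Lpl+/- 3, with the highest score as deposited (0.191), held the lowest Sult2a1 and Sult2a2 values (-0.297 and -0.202). The sign of the Sult2a1 slope was not stable, and over the alternative settings it ran from -0.341 to 0.0714. A1bg, a gene of the score, was highest of 16 in Lpl+/- 4 (0.311), the mouse with the lowest score as deposited. The 8 measured male-biased genes averaged -0.0680 in that mouse, where wild type means lay between -0.0519 and 0.0356. The score is therefore not read as an axis from male to female.

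With both scores in the model, 3 members were called on the female-biased score, Gstt2 (1.01 ± 0.165), Gstt3 (1.12 ± 0.173) and Sult1d1 (0.989 ± 0.178), with limma adjusted p between 0.00799 and 0.0141 and 2.08% of all features called. On the acute phase score 1 was called, Gsta2 (-0.524 ± 0.0877, limma adjusted p = 0.0326), with 0.155% of all features called. Gsta4 missed it at -0.270 ± 0.0513 (limma adjusted p = 0.0599).

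A clock score was the mean of the clock output gene Dbp and the core clock gene Per2 minus the clock activator Arntl. Gstt2, a theta class enzyme, was the single member called on it, where 0.682% of all features were called and 0.391% called higher. Its values ran from -0.174 over 0.0353 to 0.150 in wild type and from -0.0823 over -0.00445 to 0.199 in Lpl+/- mice, and the genotypes overlapped. The slope was 0.176 ± 0.0312 (limma adjusted p = 0.0125). Pearson's r was 0.803 and Spearman's rho 0.70, and r was 0.757 without the 2 mice farthest from the median score, as a description of the gene that the test picked. The clock score was itself correlated with the female-biased score (Pearson r = 0.563, Spearman rho = 0.538, permutation p = 0.0240 and 0.0327, that of r adjusted over 3 relations 0.0360, r = 0.584 without the 2 mice farthest from the median), and the clock and female-biased scores were not fitted together. With wild type 8 or wild type 5 turned, r between these scores was 0.529 or 0.552, and r of Gstt2 with the clock score 0.794 or 0.808. At an unadjusted limma p under 0.05 there were 8 members, against 7.85% of all features.

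Ugt2b38, of the steroid conjugating Ugt2b subfamily, was high in few livers. It stood at 0.239, -0.347, -0.296, -0.376, -0.346, -0.0492, 0.274 and 0.0619 in wild type replicates 1, 2, 4, 5, 6, 7, 8 and 9. In Lpl+/- replicates 1 to 8 it stood at 0.360, -0.0856, -0.479, -0.0977, -0.0886, -0.479, -0.161 and -0.0426. Lpl+/- 1, wild type 8 and wild type 1 were the high livers as deposited, wild type 8 would be at -0.274 and wild type 5 at 0.376 with their signs turned, and the genotypes overlapped throughout (difference -0.0293 ± 0.125, limma adjusted p = 0.969). Sult1e1 was highest in Lpl+/- 1 and wild type 1 as well, and the pair had a correlation of 0.664 over 16 mice after removal of the genotype means, as a description.

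The genes around conjugation were read from lists for glutathione supply (6 measured), glucuronic acid supply (5), sulfate supply (7), other conjugation enzymes (14), xenobiotic receptors and NRF2 regulators (12), NRF2 targets (8) and efflux transporters (6). Between the genotypes limma called 0 genes in these lists (0.0163% of all features), and 1 had an unadjusted p under 0.05, against 5.6% of all features. This was Abcg2, an exporter of conjugates into bile (difference 0.0618 ± 0.0269, unadjusted p = 0.0351, limma adjusted p = 0.836). In the cell marker lists 4 genes had an unadjusted limma p under 0.05, each with a limma adjusted p of 0.836. They were Apoa1 (-0.0849) and Tat (-0.153) of 5 hepatocyte markers, Lrat (-0.0648) of 6 stellate cell markers and Ngp (-0.0734) of 5 neutrophil markers. The bile duct, macrophage, endothelial, lymphocyte and pancreas and gut lists held none.

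On the acute phase score these lists held calls in both directions, named after their values were seen. Over all features 3.33% were called on it and 1.51% were called lower. Among other conjugation enzymes, 3 of 14 fell and 1 rose. The methyltransferases Inmt (-0.513 ± 0.0612) and Gnmt (-0.179 ± 0.0299) and the microsomal glutathione transferase Mgst3 (-0.117 ± 0.0227) fell (limma adjusted p = 3.18e-04, 0.00387 and 0.0104), while the nicotinamide methyltransferase Nnmt rose (0.328 ± 0.0502, limma adjusted p = 0.00220). Of the donor pathways, Ugp2, which makes UDP-glucose (-0.148 ± 0.0309), and Papss2, which makes PAPS (-0.125 ± 0.0268), fell, and Slc35b3, a carrier of PAPS (0.0619 ± 0.0141), rose (limma adjusted p = 0.0154, 0.0182 and 0.0246). The exporter Abcc3 (-0.241 ± 0.0503) and the quinone reductase Nqo1, an NRF2 target (-0.0972 ± 0.0252), fell (limma adjusted p = 0.0154 and 0.0471). None of the 6 genes of glutathione supply or of the 12 receptors and regulators was called. Of 8 female-biased genes 4 fell and 1 rose, and of 8 male-biased genes 1 fell (Slco1a1) and 1 rose (Cyp7b1).

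The 8 wild type livers were also set against the pool. Whether the pool of 9 wild type mice holds RNA of these same mice is not stated in the labels, and if so their mean is held near 0, so the counts are a description and no independent background. Limma called 0 of the 52 members (0.0% of all features), and 0 passed an unadjusted p of 0.05 against 2.36% of all features.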

How the data were processed

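Liver RNA of 16 mice was measured on 2-colour arrays against a wild type pool. Values are those the authors deposited as log ratios and were taken as log10, since they end at exactly 2 and -2; base, scanner, background correction, normalization and the joining of dye-swapped hybridizations are not given in the sources used here. Direction (mouse over pool) was taken from the titles, dyes and low Lpl values of Lpl+/- mice. Replicates are separate mice, 8 per genotype, and the number of arrays limits the precision.

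Of 39556 probes, 23283 had a gene symbol in the platform annotation and 16273 had none. Probes were averaged per symbol, giving 36824 features. No filter on low values was applied, so all 52 members entered each test. The genotype contrast and the slopes on 3 scores (with genotype in the model) were fitted with limma 3.58.1 (lmFit and eBayes) in R 4.3.3 on every feature, with Benjamini-Hochberg adjustment over all of them. The procedure was tested on simulated data with independent normal values for each feature. This does not check calls on genes that move together or on arrays of unsettled sign. Correlations between scores used 100000 permutations, two-sided (Python 3.11.15, numpy 2.4.6, scipy 1.17.1, pandas 2.3.3). Promoters are from RefSeq, GRCm38.p6.

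Members, scores and gene lists were chosen with earlier results of these data known. Named genes are Sult2a1, per family the 4 widest differences, the 4 widest SDs and any unadjusted p under 0.05, up to 8 members per score by p, members on chromosome 8, members with 1 mouse far from its group, and listed pathway genes at an unadjusted p under 0.05. Others are given as parts of counts. Alternatives were centring, quantile normalization, single probes, updated symbols, robust variance, array weights, values at the limit, turned signs, a replicate block and leaving out mice. Models with 2 scores, single genotypes and without the 3 highest-score mice, and scores and single values with turned signs, were added after seeing the data.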

Additional observations from a re-analysis of the deposited data

Results flagged for a closer look

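In 14 of 104 groups of 8 mice (52 genes in 2 genotypes) the highest or lowest mouse stood apart from the other 7 by Dixon's test of the gap to the nearest mouse against the group's range, at its 95% critical value. Chance gives about 1 in 20 groups of normal values, or 5.2 of these, and genes that move together are not independent. No share over all features is set beside the 14, so they are not read as a trait of these genes.

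Of the 14, 9 were low values of Lpl+/- 4, in Gsta2 (-0.778), Gsta4 (-0.496), Ugt1a10 (-0.367), Ugt2a3 (-0.257), Gsta3 (-0.238), Gstm6 (-0.169), Ugt1a1 (-0.153), Ugt1a9 (-0.146) and Ugt3a2 (-0.100). Lpl+/- 3 stood apart low in Sult2a1 (-0.297) and Sult2a2 (-0.202). Lpl+/- 1 stood apart high in Sult1e1 (0.733). Wild type 2 stood apart low in Sult4a1 (-0.120), a sulfotransferase known from brain, and Lpl+/- 8 stood apart high in Ugt2a1 (0.0951), known from olfactory tissue.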

How the results depend on the processing

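Between the genotypes the count of called members was 0 under all 30 alternatives, and the count at an unadjusted p under 0.05 ran from 0 to 5 when 1 mouse was left out (5 without Lpl+/- 4, against 6.58% of all features). Family median differences then ran from -0.0181 to 0.0178 (Gst), -0.00795 to 0.0144 (Ugt) and 0.00959 to 0.0196 (Sult). The count of 17 members called on the acute phase score was 7 with quantile normalization, 7 in wild type mice alone (6 of the 17, and Sult1c2), 8 and 1 when wild type 5 and wild type 8 were given the opposite sign, 1 with the female-biased score in the model, 0 in Lpl+/- mice alone and 0 without the 3 mice with the highest score, and ran from 6 to 19 when 1 mouse was left out (6 without Lpl+/- 4). The count of 19 on the female-biased score was 3 with the acute phase score in the model, and the count ran from 13 (without Lpl+/- 4, 8.46% of all features, and without wild type 8, 5.04%) to 22 (without wild type 1, Lpl+/- 2 or Lpl+/- 6, 7.31% to 8.40%) when 1 mouse was left out. The count on the clock score was 1 in all 24 alternatives. Where not stated otherwise, the cause was not tested.

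The replicate numbers are those that end the sample titles, and what a number shared by both genotypes stands for is not stated. Over the 7 shared numbers the correlation of same-numbered mice ran from -0.245 to 0.381, and 1 of 7 wild type mice correlated best with its own number. The main fits used no pairing, but this check cannot show whether a shared number marks mice handled together. With the replicate block 0 members were called. The difference of Gstt3 turned to -0.00294 and that of Sult2a1 to 4.29e-05 with the replicate block and equally on the same 14 arrays without it, which leave out Lpl+/- 3. Sult2a1 turned to 0.00317 when the 3 arrays with most values at 2 or -2 were left out, and Gstt3 to -0.0271 when wild type 8 was given the opposite sign. The Ugt1a5 difference ran from -0.0929 to 0.00602 when 1 mouse was left out, and was above 0 only without wild type 2. The ratios carry no signal over background, so dim probes and steady genes cannot be told apart.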
